A study of Arabidopsis thaliana with 18 samples.

Results

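The comparison described here is that of vte2 seedlings of Arabidopsis thaliana after 3 days at 22 °C with vte2 seedlings after 1 day. vte2-1 is a mutant of the Columbia-0 (Col-0) background that lacks homogentisate phytyltransferase, the enzyme of the first committed step of tocopherol (vitamin E) synthesis. The arrays were chosen by their titles: 3 arrays of vte2-1(Col-0) at 3 days and 3 at 1 day, 6 of the 18 arrays in all. The other 12 arrays were 3 each of the wild type Col-0 (WT) and of vte1-1(Col-0), a mutant of tocopherol cyclase, at the same ages. All seedlings had 5 days at 6 °C before the move to 22 °C, which broke dormancy, and grew on plates of salt medium with agar under a light-dark cycle. RNA came from whole seedlings, so that fewer cells of a type and less RNA per cell cannot be told apart in any value below. The titles call the 3 replicates of a group biological, and Affymetrix ATH1 arrays gave 1 signal per probe set. The transcripts of VTE2 and VTE1 were not analysed here, since the probe table used named no probe set for either gene.

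Between imbibition and establishment an oilseed seedling uses up what the embryo stored. Proteases in the vacuole cut the storage proteins, oil bodies are emptied through fatty acid oxidation and the glyoxylate cycle, and the proteins that protect the dry embryo disappear. Over the same days the cotyledons green, the plastid takes over carbon supply, and the root forms hairs and wall-modified tissues. Tocopherols are antioxidants of plastid membranes and oil bodies that stop lipid peroxidation, and vte2 seedlings are known for oxidised lipids during germination.

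The arrays of a day differed among themselves before any gene is considered. Log2 signals of replicate vte2 arrays correlated at 0.945 to 0.972. Median signals were 169 to 178 at day 3 and 133 to 161 at day 1, while the trimmed mean was 500.0 to 500.1 on every array. To place each array, its profile over the 7544 probe sets that differed between the days in WT was projected on the line between the WT day 1 mean (0) and the WT day 3 mean (1). The vte2 arrays of day 3 lay at 0.899, 0.918 and 0.901, and those of day 1 at 0.042, 0.019 and 0.216. Replicate 3 was the day 1 array nearest to the day 3 profile in every genotype, and lay at 0.05 in WT (replicates 1 and 2 at -0.023 and -0.027) and at 0.009 in vte1 (-0.114 and -0.115). The gap was widest in vte2. In all 6 groups replicate 3 held the largest share of the squared deviations from its group mean, 42.6% to 54%, with 48% at day 3 and 50.3% at day 1 in vte2. It also had the lowest ratio of 3' to 5' GAPDH signal in all 6 groups (log2 -0.09 at day 3 and -0.23 at day 1 in vte2, against 0.24 to 0.96 in replicates 1 and 2), a ratio that depends on RNA integrity, and the highest median in all 3 day 1 groups. Replicate 3 thus stood apart across the series, and not in vte2 alone. The part of these differences in the results was not tested, and results that rest on vte2 day 1 replicate 3 are given with and without it.

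**Figure D1:**
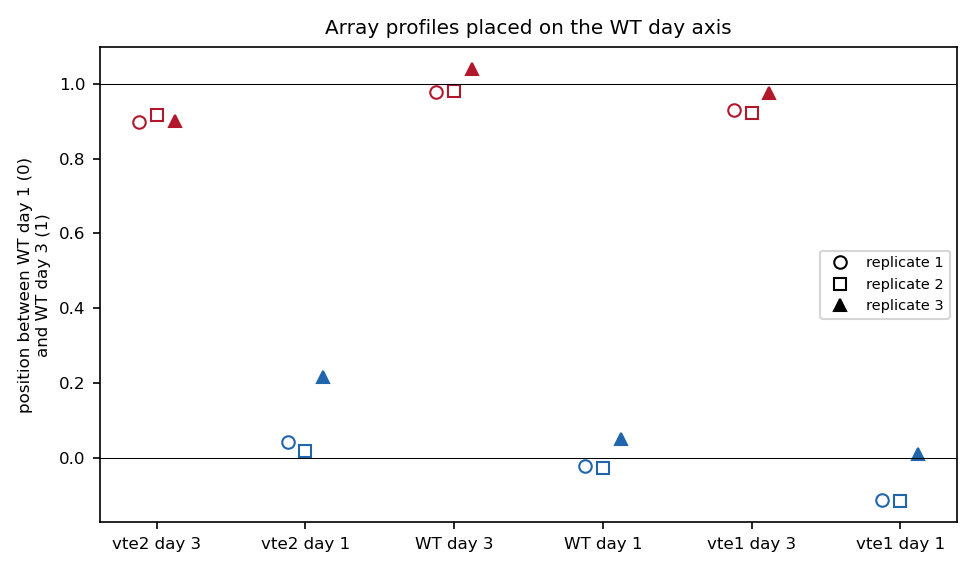
Position of each array on the axis between the WT day 1 mean (0) and the WT day 3 mean (1), one point per array, replicates by shape, day 3 in red and day 1 in blue. The WT arrays set the axis, the vte2 arrays of day 3 lie at 0.899 to 0.918, and vte2 day 1 replicate 3 lies at 0.216, above the other vte2 arrays of day 1.

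In vte2 seedlings 6398 of 15922 probe sets differed between day 3 and day 1 (40.2%), at an adjusted p under 0.05 in a limma fit of all 18 arrays with Benjamini-Hochberg adjustment. Of these 3453 were higher at day 3 (21.7% of those tested) and 2945 lower (18.5%), and the median change of all probe sets tested was 0.06 on the log2 scale. A change of at least 2-fold was found for 2669 higher and 1912 lower, and one of at least 8-fold for 333 higher and 62 lower. The split moves with the scaling: 54% of calls were higher as deposited, 39.1% of 6736 calls after centring each array on its median, which moved the median of all probe sets to -0.19, and 46.1% of 6507 after quantile normalization (median -0.10). In WT 7544 probe sets were called (47.4%; 24.6% higher and 22.8% lower at day 3), and in vte1 8494 (53.3%; 30% higher and 23.4% lower). All 3 values of day 3 lay above all 3 of day 1 in 26.9% of probe sets, and below them in 24.9%. Changes below are differences of mean log2(signal + 22), given ± SE of the fit. Adding 22 shrinks the change of dim genes, and signals are compared only within a probe set.

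The genes that rose most include those of small secreted and wall proteins, a defence hydrolase and enzymes of small-molecule metabolism. CCL, whose transcript is known for rapid turnover and circadian control, had signals of 10664.8, 15268.6 and 4810.6 at day 3 and 38.5, 20.5 and 146.6 at day 1. Its change was 6.93 ± 0.56 (limma adjusted p = 3.7e-08). AT3G05730, of the defensin-like family, had 7936.0, 12365.7 and 8619.6 at day 3 and 51.0, 67.1 and 91.7 at day 1 (6.71 ± 0.30, limma adjusted p = 4.72e-11). In both genes every day 3 array lay far above every day 1 array, and the CCL signal of day 3 varied most between replicates. ECS1, a cell wall protein gene, read 14484.3, 17627.2 and 15179.0 at day 3 against 157.0, 202.1 and 433.6 at day 1, a change of 5.90 ± 0.36.

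Proteins of the lipid transfer type, which bind lipids outside the cell, were among the strongest risers. AT3G53980 had 1563.4, 2250.6 and 2611.1 at day 3 and 7.4, 4.0 and 10.2 at day 1 (6.19 ± 0.42). AT4G12490 had 5413.7, 3975.3 and 3312.2 at day 3 and 78.7, 9.1 and 91.0 at day 1 (5.88 ± 0.47). Both were dim in all day 1 arrays. AT2G43620, of the chitinase family, had 2055.9, 2203.2 and 1733.3 at day 3 against 19.7, 2.8 and 43.7 at day 1 (5.62 ± 0.57). The other 8 of the 14 strongest had changes between 5.24 and 6.70. They were AT1G22690 of the gibberellin-regulated family (5.75), AT3G62550 of the universal stress protein family (5.54), the tropinone reductase-like gene AT2G29290 (5.48), AT4G38080 of the hydroxyproline-rich family (5.43), the glycine-rich protein gene AT2G05540 (5.41), the cytochrome P450 gene AT3G44970 (5.24), and AT2G25510 (6.70) and AT1G64370 (5.50). AT3G62550 was uneven at day 3, with 2966.2, 6744.6 and 493.9 against 7.1, 36.4 and 39.0 at day 1. Groups that do not overlap were a condition for naming all 14 loci.

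**Figure D2:**
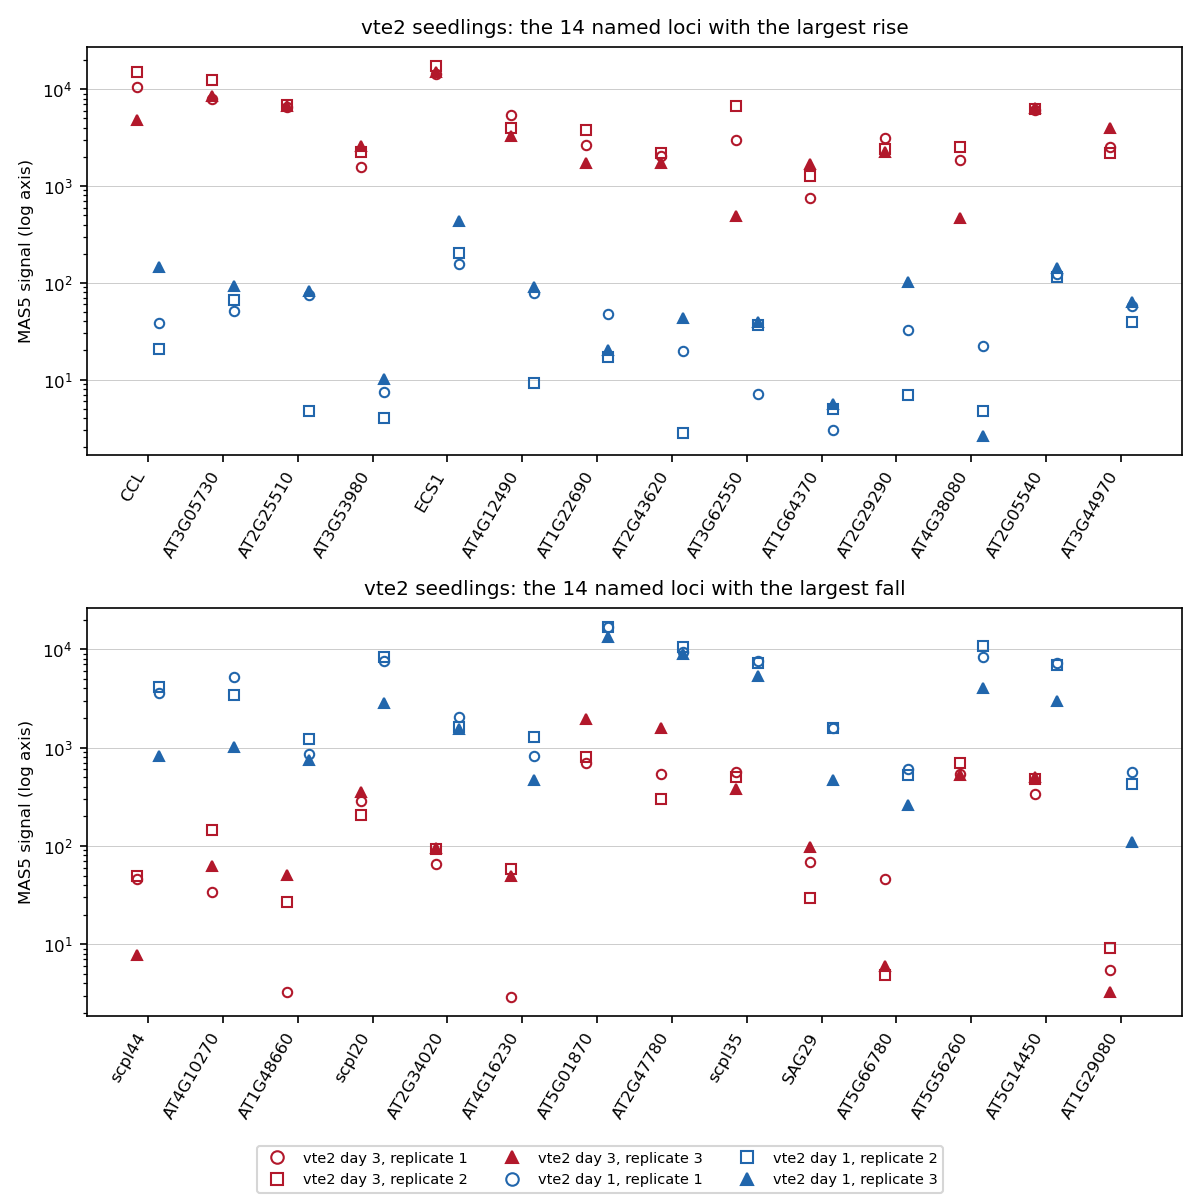
MAS5 signals on a log axis of the 14 loci with the largest rise (top) and the 14 with the largest fall (bottom) in vte2, day 3 in red left of day 1 in blue, one point per array and replicates by shape. Only loci whose groups do not overlap were eligible, and at day 1 the filled triangle of replicate 3 is the array nearest the day 3 values in 12 of the 14 upper and all 14 lower loci.

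The genes that fell most include several hydrolases. scpl44, scpl20 and scpl35 encode serine carboxypeptidase-like proteins, a family that includes proteases of reserve breakdown. scpl44 had 46.1, 49.6 and 7.7 at day 3 and 3608.8, 4138.3 and 814.9 at day 1, a change of -5.47 ± 0.46 (limma adjusted p = 4.91e-08). scpl20 had 286.3, 208.3 and 350.7 at day 3 and 7663.8, 8402.3 and 2854.1 at day 1 (-4.26 ± 0.31), and scpl35 had 566.7, 497.2 and 377.5 at day 3 and 7651.6, 7164.0 and 5342.3 at day 1 (-3.75 ± 0.23). Day 1 replicate 3 was the lowest day 1 array for all 3 genes. AT1G29080, of the papain family of cysteine proteases, fell by 3.55 ± 0.63 on the log2 scale, and the GDSL lipase family genes AT4G16230 and AT5G14450 changed by -3.95 and -3.56.

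Oil-body and transport genes were in the same group. AT2G47780, a lipid droplet-associated protein gene, had 544.0, 300.7 and 1592.3 at day 3 against 9471.3, 10467.3 and 8872.8 at day 1 (-3.85 ± 0.59, limma adjusted p = 4.63e-05). The lipid transfer protein gene AT5G01870 had 689.5, 795.3 and 1946.9 at day 3 and 17019.9, 16727.4 and 13401.2 at day 1 (-3.90 ± 0.39). In both the highest day 3 array was replicate 3. SAG29, a SWEET-family sugar transporter also called SWEET15, had 68.4, 29.7 and 97.9 at day 3 against 1574.1, 1589.4 and 473.2 at day 1 (-3.72 ± 0.58). The remaining fallers were the wound-responsive family gene AT4G10270 (-4.84), the GH3 family gene AT1G48660 (-4.40), the EF-hand gene AT2G34020 (-4.04), AT5G66780 (-3.63) and AT5G56260 (-3.57). All 28 of these loci, 14 in each direction, kept their call in every alternative in which they were tested, with an adjusted p of at most 0.045.

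Late embryogenesis abundant (LEA) proteins protect cell contents against drying, and 16 of 22 loci on the array passed the filter on low signals. Of these 6 fell and 2 rose, with a median of -1.50, beside 18.5% lower and 21.7% higher among all probe sets. LEA18 had 174.8, 146.9 and 44.5 at day 3 and 1842.9, 1627.0 and 533.5 at day 1 (-3.20 ± 0.97, limma adjusted p = 0.0126), and AT3G02480 had 333.5, 550.2 and 373.9 at day 3 and 4586.7, 6302.4 and 1897.7 at day 1 (-3.15 ± 0.81). LTI30, a dehydrin known for induction by low temperature, went the other way, with 4088.6, 4116.2 and 6522.7 at day 3 and 287.9, 375.1 and 1090.5 at day 1 (3.22 ± 0.49), and AT1G54410 rose by 0.87. The count of LEA genes that fell depends on single replicates: with replicate 1 or replicate 2 left out of all groups 1 fell, with replicate 3 left out 10, and with 1 vte2 array left out 2 to 7, namely 2 without day 1 replicate 1, 3 without day 3 replicate 3, and 4 without day 3 replicate 1 or day 1 replicate 2. The rises were then 1 or 2. LEA18 lost its call without day 3 replicate 3 or day 1 replicate 1 (-2.71 and -2.88).

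Few genes of oil bodies and oil use were measured. The oleosin OLEO3, a coat protein of oil bodies, fell to 14.8, 101.6 and 86.3 at day 3, against 175.6, 215.3 and 159.8 at day 1 (-1.37 ± 0.44, limma adjusted p = 0.018). The call was lost without day 3 replicate 1 (-0.82) or day 1 replicate 2 (-1.26). The other 2 measured members of the oleosin and caleosin list, AT3G01570 and AT2G25890, had changes of -1.71 and -1.27 that did not pass (limma adjusted p = 0.168 and 0.0635). ICL, isocitrate lyase of the glyoxylate cycle, remained bright, with 12285.7, 11572.3 and 14013.4 at day 3 and 33591.1, 31059.9 and 36332.1 at day 1 (-1.42 ± 0.46, limma adjusted p = 0.0198). Without day 3 replicate 1 or 2 it missed the threshold (-1.40 and -1.35). The lipase-like gene SDP1-LIKE fell by 1.71 on the log2 scale, whereas SDP1, the main lipase of seed oil, had 863.3, 1135.4 and 735.3 at day 3 and 1203.7, 841.1 and 944.0 at day 1, which overlap. AIM1, of peroxisomal fatty acid oxidation, had a change of 0.74 (limma adjusted p = 0.0367) that was lost after median centring (0.50) and without replicate 1 or 3 of day 3 or replicate 1 or 2 of day 1 (0.54 to 0.76).

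Proteases of the vacuole moved in both directions. Of 23 measured loci of the serine carboxypeptidase-like, vacuolar processing enzyme and cathepsin-like list, 10 fell and 2 rose (median -0.58), beside 18.5% lower and 21.7% higher among all probe sets. Besides the 3 strongest, scpl29 changed by -2.24, DELTA-VPE, the seed coat form of vacuolar processing enzyme, by -2.14, and the cathepsin B-like gene AT4G01610 by -1.32. GAMMA-VPE, the form of vegetative tissue, rose by 1.50, and scpl28 rose by 2.65, to 113.0, 215.1 and 274.1 at day 3, against 6.8, 7.7 and 22.5 at day 1. BETA-VPE, the form that matures storage proteins in seeds, had a change of -0.48 that did not pass. Of 9 loci on the seed storage protein list 1 had a probe set named for it, which did not pass the filter on low signals, and both measured vicilin-like genes, AT2G28490 and PAP85, had falls that did not pass (-1.12 and -0.65).

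Few nuclear genes of the photosynthetic core were measured, and all of these rose. Of the 47 loci of the photosystem and electron transport list 6 were measured, and all 6 rose (median 1.77). So did all 3 measured of 21 light-harvesting loci, which were LHCB4.1, LHCB4.2 and LHCB4.3 (median 2.03). All 3 measured of 19 Calvin cycle loci (2.48) and all 3 of 11 photorespiration loci (2.92) rose as well. Those counts stand beside 21.7% of all probe sets tested. LHCB4.2, an antenna protein of photosystem II, had 22763.2, 22365.4 and 23098.0 at day 3 and 3079.4, 2709.4 and 3605.1 at day 1 (2.86 ± 0.25, limma adjusted p = 9.8e-08). PSAN, a photosystem I subunit on the lumen side, had 19076.3, 21366.1 and 20789.1 at day 3 and 1542.4, 1742.3 and 3510.0 at day 1 (3.26 ± 0.33). Replicates of a day lay close together for both genes, apart from day 1 replicate 3, the highest of its group. HPR, the hydroxypyruvate reductase of photorespiration, had 15872.4, 16145.8 and 12354.2 at day 3 and 1245.5, 1247.2 and 1911.8 at day 1 (3.33 ± 0.22).

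In the Calvin cycle, RCA (Rubisco activase) rose to 32920.4, 42231.4 and 31843.6 at day 3, against 5775.7, 4587.4 and 9440.4 at day 1 (2.48 ± 0.38). PRK (phosphoribulokinase) rose by 2.52 and SBPASE (sedoheptulose bisphosphatase) by 2.32. Among 14 measured genes of thylakoid assembly and the chloroplast NDH complex, 11 rose and 1 fell (median 1.51), beside 21.7% higher and 18.5% lower among all probe sets. NdhL, a membrane subunit of the NDH complex, rose most, to 1737.6, 1874.4 and 1631.1 at day 3, against 132.3, 202.1 and 139.2 at day 1 (3.32 ± 0.27). The member that fell was AT4G38100, with 435.8, 307.1 and 444.6 at day 3 and 2444.6, 2709.7 and 1341.7 at day 1 (-2.34 ± 0.25). LPA1 (-0.04) and AT2G28605 (0.45) did not pass.

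Of 7 measured genes of chlorophyll synthesis 1 rose and 1 fell (median -0.15), not far from the 21.7% higher and 18.5% lower of all probe sets. CHLM, the magnesium protoporphyrin methyltransferase, had 7258.1, 7851.0 and 9636.7 at day 3 and 5343.3, 3949.1 and 3228.4 at day 1 (1.00 ± 0.24, limma adjusted p = 0.00227). GSA1, of the early step to aminolevulinic acid, had 1360.9, 1267.6 and 826.6 at day 3 and 2197.9, 2609.9 and 1927.5 at day 1 (-0.97 ± 0.24). PORB, a light-dependent protochlorophyllide reductase, had a change of -1.52 that did not pass.

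Genes carried by the plastid genome fell into classes. Of 69 such loci on the array 68 passed the filter, of which 34 rose and 1 fell (median 1.01), beside 21.7% higher and 18.5% lower among all probe sets. Among the 15 photosystem II genes 13 rose, with a median of 1.45, and so did 8 of 9 NDH genes (1.44), 5 of 6 ATP synthase genes (1.19) and 3 of 5 photosystem I genes (1.61). None of the 15 ribosomal protein genes of the plastid was called by limma in either direction, with a median of -0.10, and of the 4 RNA polymerase genes rpoC1 fell (-1.52) and none rose. psbA, which encodes the D1 protein of photosystem II, had 6855.7, 6239.5 and 6981.4 at day 3 and 1101.1, 386.6 and 1214.7 at day 1 (3.02 ± 0.35, limma adjusted p = 2.11e-06). psaA, a core subunit of photosystem I, had 8814.6, 7112.4 and 7044.1 at day 3 and 793.8, 861.5 and 1857.2 at day 1 (2.79 ± 0.52). rbcL, the large subunit of Rubisco, rose by 1.01. Plastid genes share long transcripts, so that neighbours are not independent. The 34 fell to 15 without replicate 1 in all groups and to 13 without replicate 2, and reached 50 without replicate 3.

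**Figure D3:**
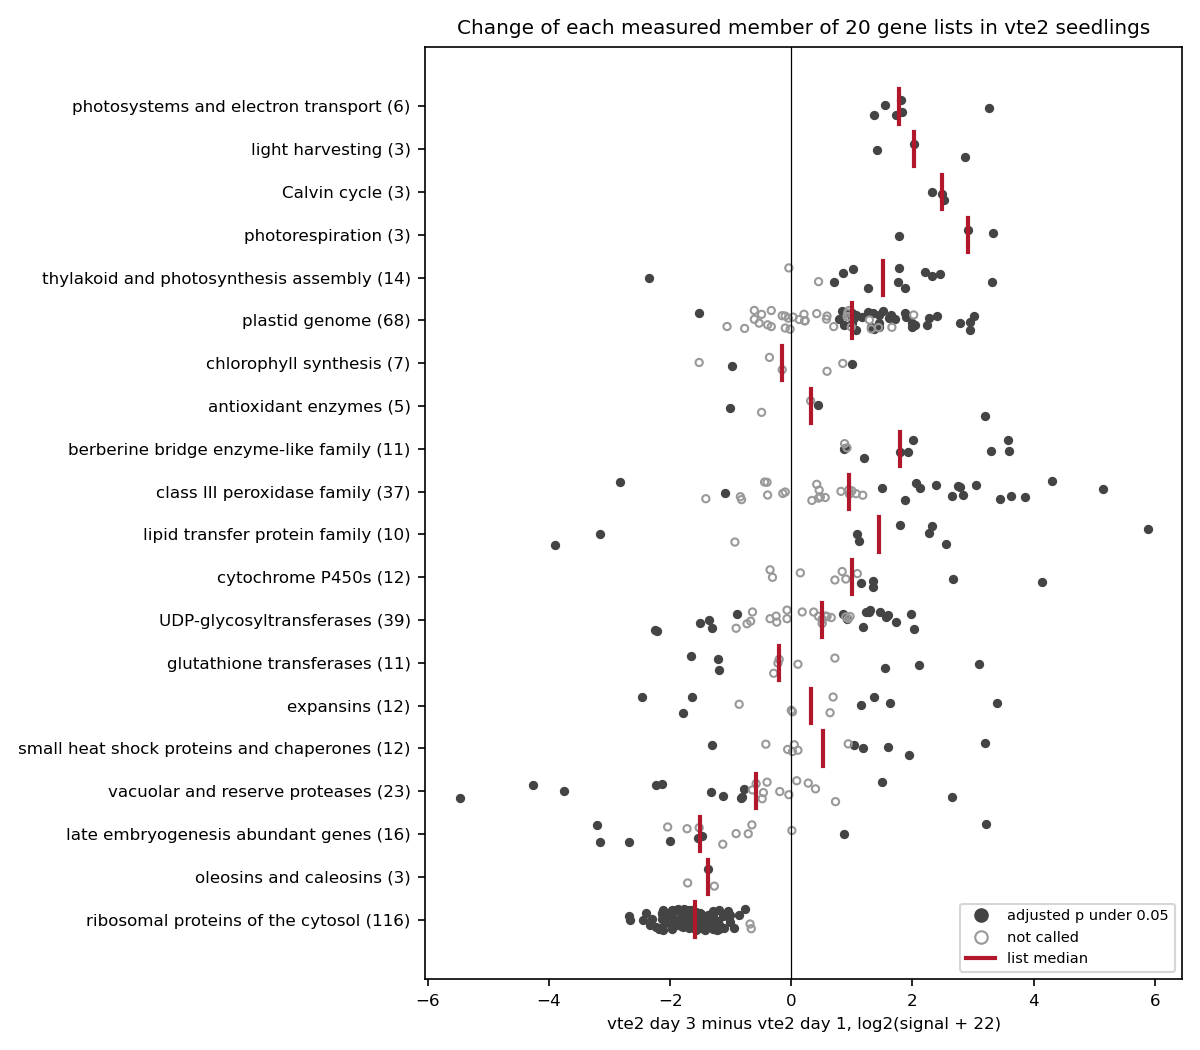
Log2 change in vte2 (day 3 minus day 1) of each measured member of 20 gene lists, filled where the adjusted p is under 0.05, with the list median as a red bar and the number measured in brackets. The photosystem, light-harvesting, Calvin cycle and photorespiration lists lie wholly to the right of 0, and the 116 cytosolic ribosomal protein genes wholly to the left. Thylakoid assembly, plastid genome and chlorophyll synthesis genes span both sides, as do peroxidases, glycosyltransferases and glutathione transferases.

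Genes for ribosomal proteins of the cytosol fell almost without exception. Of 132 loci on the array 116 passed the filter, and 114 of them fell (median -1.59, range -2.68 to -0.66), against 18.5% of all probe sets tested. Averaged over the 116 genes, the log2 level was 11.49, 11.44 and 11.34 on the day 3 arrays and 13.17, 13.24 and 12.69 on the day 1 arrays. The groups did not overlap, and day 1 replicate 3 was the lowest of its group. AT3G47370, a small-subunit protein gene, had 2976.3, 2335.1 and 2083.2 at day 3 and 14553.3, 17211.3 and 9520.4 at day 1 (-2.44 ± 0.30, limma adjusted p = 3.54e-06). The strongest falls were those of AT1G07070 (-2.68) and AT3G57490 (-2.66). The 2 that did not pass, AT5G27700 and AT5G39850, named for that reason after their values were seen, changed by -0.66 and -0.68 (limma adjusted p = 0.0826 and 0.126). Median centring gave 115 and quantile normalization 114, and leaving replicate 1 or 2 out of all groups gave 100 and 93. The median over these genes was -1.71 in WT and -1.96 in vte1. Many of these genes belong to families of near-identical copies, whose probe sets may share signal.

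In the pathway that the mutation interrupts, 3 genes of tocopherol and prenylquinone synthesis were measured. NDC1, an NAD(P)H dehydrogenase of plastoglobules that acts on prenylquinones, had 878.6, 858.5 and 774.9 at day 3 and 355.6, 440.2 and 515.1 at day 1 (0.92 ± 0.31, limma adjusted p = 0.0236). The call did not survive median centring (0.67) or leaving out replicate 1 or 2 of either day (0.78 to 0.93). AT1G74470, geranylgeranyl reductase, whose product gives the tocopherol side chain, had 15501.6, 15431.9 and 12566.0 at day 3 and 8937.0, 6545.3 and 8723.4 at day 1. Its groups did not overlap but the change of 0.85 missed the threshold (limma adjusted p = 0.0654). AT1G78620, the phytyl phosphate kinase gene, overlapped between the days (-0.09). LYC, the lycopene cyclase and the single measured carotenoid gene, had a change of 0.51 that did not pass.

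Antioxidant enzymes moved in both directions. TAPX, the ascorbate peroxidase of the thylakoid, rose to 2249.7, 1728.8 and 733.4 at day 3, against 138.6, 95.9 and 188.4 at day 1 (3.19 ± 0.32, limma adjusted p = 4.63e-07). SAPX, the ascorbate peroxidase of the stroma and mitochondria, had 1160.6, 1041.0 and 866.3 at day 3 and 1613.1, 1809.5 and 3044.8 at day 1 (-1.01 ± 0.27, limma adjusted p = 0.00545). Neither gene overlapped between the days. The peroxiredoxin gene AT3G11630 had a change of 0.44 that lost its call after median centring (0.19) and without any 1 vte2 array but day 3 replicate 3 (0.36 to 0.47). The glutathione reductases GR1 and GR had -0.49 and 0.32, which did not pass.

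Of 5 measured genes of the response to electrophiles and oxidised lipids, 1 fell and none rose (median -0.07), beside 18.5% lower and 21.7% higher among all probe sets. GSTU25, a glutathione transferase induced by xenobiotics and oxylipins, had 1341.4, 1073.1 and 2262.6 at day 3 and 2716.5, 3866.8 and 3931.2 at day 1 (-1.21 ± 0.30, limma adjusted p = 0.00356). AER, an alkenal reductase, had 2040.4, 2101.7 and 2003.8 at day 3 and 977.6, 1469.9 and 1621.8 at day 1, which did not overlap but did not pass (0.62, limma adjusted p = 0.105). AT2G21640 (UPOX), a mark of mitochondrial oxidative stress, had -0.60 in vte2, -2.24 in WT and -3.20 in vte1. Its change in vte2 did not pass (limma adjusted p = 0.348). Its difference from vte1 passed (limma adjusted p = 0.0326) and that from WT did not (limma adjusted p = 0.626).

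The list of small heat shock proteins and chaperones held 5 rises and 1 fall among 12 measured loci (median 0.52), beside 21.7% higher and 18.5% lower among all probe sets. AT2G29500, a small heat shock protein of the cytosol, had 1896.9, 1844.4 and 2076.0 at day 3 and 120.5, 111.6 and 490.7 at day 1 (3.20 ± 0.43). AT1G53540, of the same class, had 89.8, 146.3 and 111.4 at day 3 and 10.4, 23.1 and 7.9 at day 1 (1.95 ± 0.35). AT5G37670, a further small heat shock protein, went down to 90.0, 151.5 and 159.0 at day 3, against 387.4, 480.9 and 239.6 at day 1 (-1.31 ± 0.28). In a separate list of 3 measured chaperone genes Cpn60beta2, a subunit of the plastid chaperonin, was the one that fell, with 2673.7, 2197.7 and 968.3 at day 3 and 9046.8, 8652.8 and 8842.2 at day 1 (-2.29 ± 0.39). With 1 vte2 array left out 3 to 6 of the 12 rose (3 without day 3 replicate 2 or without day 1 replicate 1 or 2), and 2 with replicate 1 or replicate 2 left out of all groups.

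Class III peroxidases, secreted haem enzymes that crosslink or loosen the wall, were among the most varied families. Of 55 loci on the array 37 passed the filter, of which 15 rose and 2 fell (median 0.96), beside 21.7% higher and 18.5% lower among all probe sets. AT2G37130 had 5752.8, 5400.3 and 6871.3 at day 3 and 81.9, 98.1 and 367.5 at day 1 (5.15 ± 0.45, limma adjusted p = 8.08e-08), and AT5G66390 had 739.8, 806.5 and 730.8 at day 3 and 3.3, 2.5 and 77.2 at day 1 (4.31 ± 0.44). In both genes day 1 replicate 3 was the highest of its group. Without that array 19 peroxidases rose and 1 fell (median 1.63), and without replicate 3 in all groups 24 rose and 5 fell. The strongest fall was that of AT4G31760 (-2.82).

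Day 1 replicate 3 lay far from the other vte2 day 1 arrays in root hair genes. EXPA7 and EXPA18, expansins of root hair cells and the 2 measured of 13 root markers, had 281.5, 412.9 and 2313.1, and 154.8, 197.5 and 2446.8 in replicates 1, 2 and 3 of day 1. At day 3 they had 308.1, 284.3 and 484.3, and 344.7, 384.4 and 619.0. The peroxidase genes AT3G49960 and AT1G30870 had 481.8, 326.1 and 249.2, and 1406.9, 1180.2 and 1346.5 at day 3. At day 1 they had 382.2, 353.0 and 5823.2, and 852.0, 976.0 and 6667.7. In all 4 genes day 1 replicate 3 lay above every day 3 array, and replicates 1 and 2 of day 1 lay near or below them. None of the 4 was called (limma adjusted p = 0.194 to 0.999). Without day 1 replicate 3 EXPA18 rose by 1.21 (limma adjusted p = 0.021), while EXPA7 (0.03) and AT1G30870 (0.51) did not pass.

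**Figure D4:**
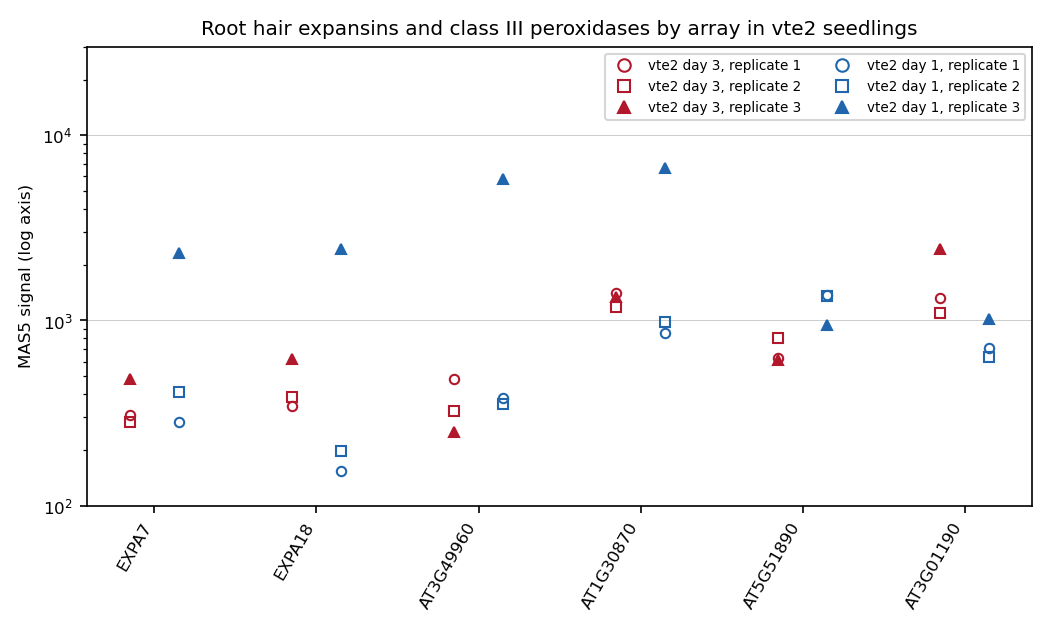
MAS5 signals on a log axis of 2 root hair expansin genes and 4 class III peroxidase genes in vte2, day 3 in red left of day 1 in blue, one point per array. Day 1 replicate 3 (filled blue triangle) lies above all day 3 arrays for EXPA7, EXPA18, AT3G49960 and AT1G30870, and below the other day 1 arrays for AT5G51890.

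Markers of other tissues gave little. Of 6 shoot and stomatal markers 3 were measured and none was called by limma: SPCH (-0.78), FMA (0.78) and MUTE (-0.61), regulators of the stomatal lineage, were dim on both days, from 9.0 to 159.6 at day 3 and from 40.3 to 259.5 at day 1. Of 5 markers of endosperm and seed coat 1 had a named probe set, which did not pass the filter on low signals. The share of these tissues in the samples was therefore not measured here.

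Of 11 measured berberine bridge enzyme-like genes, which encode flavin oxidases acting on sugars and wall compounds, 9 rose and none fell (median 1.80), beside 21.7% higher among all probe sets. AT1G30700 had 1421.3, 1381.7 and 2947.4 at day 3 and 133.6, 55.4 and 512.9 at day 1 (3.29 ± 0.51), and AT5G44400 had 171.0, 178.0 and 154.4 at day 3 and 33.8, 14.7 and 29.1 at day 1 (2.01 ± 0.40). Leaving out day 3 replicate 3 left 6 rises, and leaving replicate 1 out of all groups left 5. Of 10 measured genes of the lipid transfer protein family 7 rose and 2 fell (median 1.46), beside the same background. One of the 2 was AT4G22490, with 174.9, 113.1 and 143.9 at day 3 and 1297.8, 1320.6 and 1702.5 at day 1 (-3.15 ± 0.35).

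Expansins, which loosen walls, divided into 4 that rose and 3 that fell among 12 measured, beside 21.7% higher and 18.5% lower among all probe sets. EXLA1 had 1949.5, 2945.7 and 1265.0 at day 3 and 167.0, 102.5 and 256.3 at day 1 (3.39 ± 0.34). EXPA9 had 527.1, 478.9 and 1098.8 at day 3 and 3784.6, 3947.2 and 3402.2 at day 1 (-2.46 ± 0.30). Of 8 measured xyloglucan endotransglucosylases 4 rose and none fell, beside 21.7% higher among all probe sets, led by XTH33 (1.45) and EXGT-A3 (1.41). The other 2, XTH18 and XTH32, lost their calls without day 3 replicate 3 or without day 1 replicate 1 or 2. Of 4 measured histone genes 2 rose and 1 fell, and of 7 measured tubulin genes 1 rose and 2 fell (medians 0.38 and -0.29). These small counts stand beside 21.7% higher and 18.5% lower among all probe sets. The histone HTB2 had 506.5, 420.9 and 385.0 at day 3 and 1433.1, 2135.5 and 1053.4 at day 1 (-1.72 ± 0.26), and the linker histone HIS1-3, known for induction by drought, rose by 2.28. The rise of HON4, of the linker histone type (1.55, limma adjusted p = 0.0247), lost its call without replicate 1 or 2 of either day. TUA6, an alpha tubulin, changed by -0.98 and TUB1, a beta tubulin, by -1.46, while the alpha tubulin TUA1 rose by 0.88 (limma adjusted p = 0.0122). TUA1 lost its call after median centring and without day 3 replicate 3 or day 1 replicate 1. TUB1 lost its call without day 3 replicate 1 (-1.29) or day 1 replicate 3 (-1.20).

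Metabolic families were mixed. UDP-glycosyltransferases, which attach sugars to small molecules, gave 12 rises and 6 falls among 39 measured (median 0.51), shares near the 21.7% higher and 18.5% lower of all probe sets. UGT84A4 rose by 2.02, while UGT76E12 had 51.1, 86.8 and 138.1 at day 3 and 377.0, 440.8 and 719.1 at day 1 (-2.25 ± 0.34), and UGT78D1, of flavonol glycosylation, changed by -2.21. Glutathione transferases gave 3 rises and 3 falls among 11 measured, shares also near the 21.7% and 18.5% of all probe sets. GSTL3 rose to 3666.4, 4406.3 and 3138.4 at day 3, against 270.5, 303.1 and 852.5 at day 1 (3.09 ± 0.41), and GSTU20 changed by -1.66. Of 12 measured cytochrome P450 genes of the list 5 rose and none fell, beside 21.7% higher and 18.5% lower among all probe sets, with CYP71B26 at 4.13. Among sugar transporters SWEET17, SWEET16 and SWEET2, which move sugars across the tonoplast, rose by 3.50, 2.60 and 2.50, beside the fall of SAG29 above.

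The change in vte2 differed from that in WT in 32 of 15922 probe sets (0.201%), 27 with a higher change in vte2 (0.17%) and 5 with a lower one (0.0314%), while 1067 had an unadjusted limma p under 0.05. Of the 27, 19 rose in vte2 and 11 fell in WT, and 1 fell in both. The 5 with a lower change rose in both genotypes. AT4G12490 differed most: its change was 5.88 in vte2 and -0.28 in WT (difference 6.16, limma adjusted p = 0.000175). AT1G65500 had 955.0, 1655.4 and 1185.3 at day 3 and 5.5, 8.6 and 36.0 at day 1 in vte2, a change of 5.10 against -0.26 in WT (difference 5.36, limma adjusted p = 7.8e-05). The difference of AT4G12490 and that of YLS5 (0.91 in vte2, -1.97 in WT, difference 2.88, limma adjusted p = 0.000202) kept their call when any 1 vte2 array was left out. Both lost it without replicate 1 in all groups, and YLS5 also without replicate 2. The limma adjusted p there was 0.34 for AT4G12490 and up to 0.54 for YLS5. Differences of single genes were not refitted with 1 WT array left out. With 1 day 3 array of vte2 left out AT1G65500 fell below the filter on low signals and was not tested. It was called in the 3 fits without 1 day 1 array, but these keep the high day 3 signals through which it passed the filter. Its call was lost without replicate 2 in all groups (limma adjusted p = 0.062). The count of 32 fell to 6, 9 and 10 without day 3 replicate 1, 2 or 3 of vte2 and to 9 and 7 without day 1 replicate 1 or 2, and was 43 without day 1 replicate 3. It was 6 to 23 without 1 WT array, at 6 without WT day 3 replicate 2, and at 11, 9 and 14 without WT day 1 replicate 1, 2 or 3.

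PDF1.4, a plant defensin gene, had 4283.2, 5020.6 and 5489.0 at day 3 and 295.7, 231.6 and 456.7 at day 1 in vte2, a change of 3.87, against 0.95 in WT (difference 2.92, limma adjusted p = 0.0329). PRX52, a class III peroxidase of lignified tissue, had 613.0, 495.8 and 399.1 at day 3 and 57.0, 10.2 and 19.3 at day 1 in vte2, a change of 3.45, against -0.98 in WT (difference 4.44, limma adjusted p = 0.0185). The berberine bridge enzyme-like genes AT1G26420 and AT1G26380 differed by 4.69 and 4.19, and AT2G43620 by 4.11. AT3G50560, a dehydrogenase family gene, was lower: 2.94 in vte2, with 730.8, 839.2 and 1326.1 at day 3 and 113.5, 133.5 and 69.1 at day 1, against 4.93 in WT (difference -1.99, limma adjusted p = 0.0364). With 1 vte2 array fewer most of these 6 calls missed the threshold, and all 6 held without day 1 replicate 3. PDF1.4, AT1G26420, AT1G26380 and AT2G43620 kept theirs in 1 of the 6 fits without 1 vte2 array, and PRX52 and AT3G50560 in 2 of 6, with adjusted p up to 0.17 and differences of 2.71 to 5.57, or -2.24 to -1.82 for AT3G50560.

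The change in vte2 differed from that in vte1 in 842 probe sets (5.29%), 231 higher in vte2 (1.45%) and 611 lower (3.84%). The comparisons with WT and with vte1 share the 6 vte2 arrays. With 1 vte1 array left out the count of 842 was 1709 without vte1 day 1 replicate 3, and 453 to 547 without day 1 replicate 1 or 2 or day 3 replicate 1 or 2 of vte1. Without vte2 day 3 replicate 1 or 2 it was 554 or 534. Of the 611, 271 rose in both mutants and 273 were not called in vte2, while 572 rose in vte1. The genes with a higher change in vte2 included AT4G12490 (5.88 against -0.29 in vte1, difference 6.17), AT1G65500 (5.10 against -1.04), PRX52 (3.45 against -2.15), AT2G43620 (5.62 against 0.39), PDF1.4 (3.87 against 0.29) and AT1G26380 (3.59 against 0.09, a difference of 3.50 that lost its call without vte2 day 1 replicate 1 (3.28) or 2 (3.06)). For AT1G65500 the limit given above holds here too, since it passed the filter on low signals through its vte2 day 3 signals. AT3G62550 rose by 5.54 in vte2, 4.96 in WT and 1.88 in vte1, a difference of 3.66 from vte1 (limma adjusted p = 0.0342). That call was lost without vte2 day 3 replicate 1 (3.43), day 3 replicate 2 (2.84) or day 1 replicate 1 (3.31).

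The lower side held root peroxidases, a sugar transporter and photosynthesis genes. AT3G49960 and AT1G30870, shown above by array, changed by -1.41 and -0.44 in vte2, and by 3.66 and 4.46 in vte1 (differences -5.06 and -4.90, limma adjusted p = 0.0166 and 0.0115). Without vte2 day 1 replicate 3 these differences were -3.76 and -3.95, still called. AT5G51890, a further peroxidase, had 630.9, 800.3 and 609.5 at day 3 and 1374.2, 1353.4 and 945.5 at day 1 in vte2, a change of -0.82, against 3.26 in vte1 (difference -4.08). SWEET11, a sucrose exporter of the phloem, had 2420.0, 2256.4 and 2973.8 at day 3 and 1209.9, 909.9 and 1193.2 at day 1 in vte2, a change of 1.19 ± 0.34, against 4.91 in vte1 (difference -3.71, limma adjusted p = 0.000371). The thionin gene THI2.2 rose in vte2 by 2.66 and in vte1 by 6.81 (difference -4.15), AT4G16980 of the arabinogalactan protein family by 3.17 and 6.82 (-3.66), and AT4G25250, a pectin methylesterase inhibitor, had -0.36 in vte2 and 3.28 in vte1 (-3.64).

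Some photosynthesis genes rose by less in vte2 than in vte1. Averaged over the 6 photosystem genes, the log2 level at day 3 was 14.19, 14.25 and 13.87 in vte2 and 14.5, 14.19 and 14.25 in vte1, which overlap. At day 1 it was 12.19, 12.22 and 12.15 in vte2 and 10.84, 10.94 and 11.39 in vte1, lower in vte1. In WT it was 14.67, 14.74 and 15.08 at day 3 and 12.01, 11.95 and 11.87 at day 1. Against vte1, 4 of 6 photosystem and electron transport genes, 2 of 3 light-harvesting genes, 2 of 3 photorespiration genes and 4 of 14 thylakoid assembly genes had a lower change in vte2, beside 3.84% of all probe sets. PSAN rose by 3.26 in vte2 and by 5.27 in vte1 (limma adjusted p of the difference = 0.0156), and LHCB4.2 by 2.86 and 5.07 (0.00151). In WT these rises were 4.07 and 3.83, and no gene of these 4 lists differed between vte2 and WT by limma. The median differences from WT were nevertheless below 0 in the 4 lists, in the order above: -0.996, -0.975, -0.7184 and -0.5775. Those from vte1 were -1.208, -1.619, -1.125 and -1.025. Every photosystem, light-harvesting and photorespiration gene measured had a smaller rise in vte2 than in WT. Root hair markers EXPA7 and EXPA18 both had a lower change in vte2 than in vte1 (-3.55 and -3.33). Averaged over these 2 genes, the log2 level at day 1 was 5.68, 5.96 and 7.36 in vte1, below 7.86, 8.27 and 11.23 in vte2 and 8.69, 8.4 and 9.07 in WT. At day 3 it was 9.16, 9.42 and 9.44 in vte1 and 8.44, 8.46 and 9.15 in vte2. Neither call held without vte2 day 3 replicate 1 or 2, and without vte2 day 1 replicate 3 the count was 1. That array also took the photorespiration count to 0, with 1 of 3 light-harvesting genes called, and the photosystem count was 2 without vte2 day 1 replicate 2. With replicate 1 or replicate 2 left out of all groups none of these list members differed from vte1, where 1 and 5 probe sets were called in all, while without replicate 3 the photosystem count was 6 of 6 and the total 3155. In the fit of all arrays 1 of 3 Calvin cycle genes had a lower change in vte2 than in vte1, and none passed against WT (median difference -1.07).

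**Figure D5:**
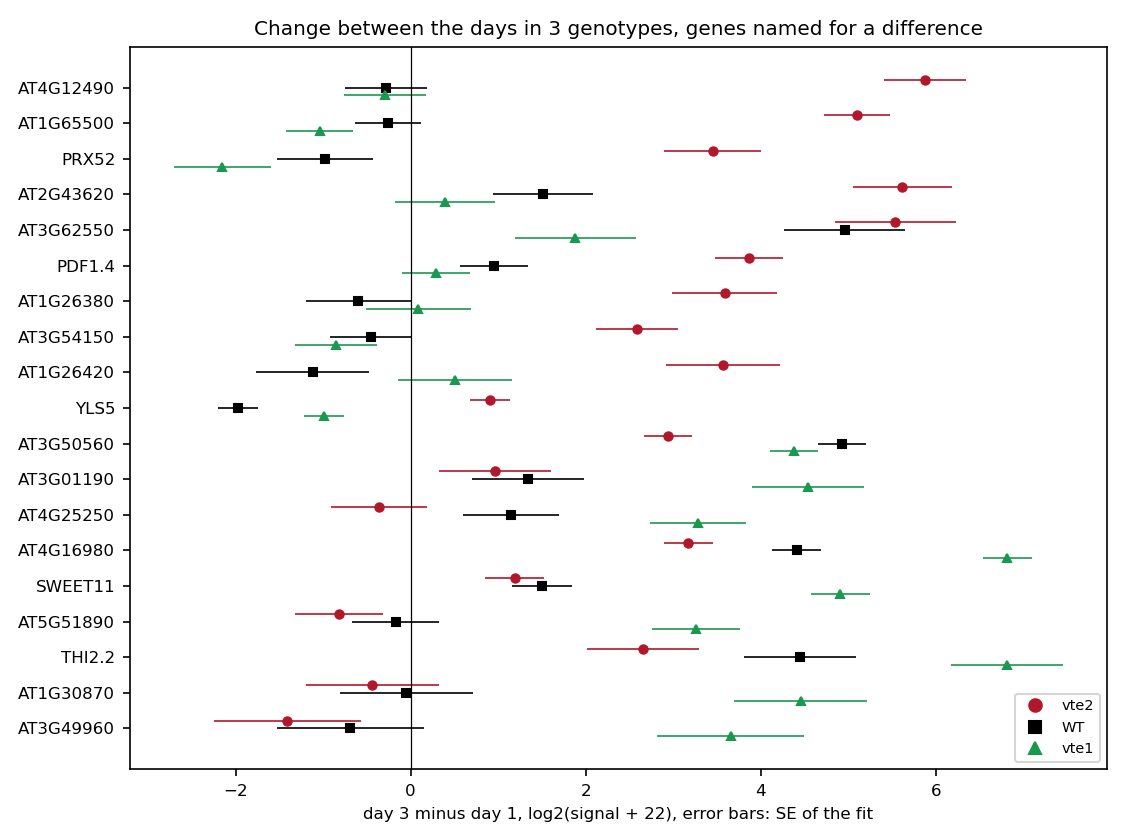
Log2 change between day 3 and day 1 in vte2 (red circles), WT (black squares) and vte1 (green triangles) with the SE of the fit, for genes named for a difference between genotypes. For the upper genes, such as AT4G12490, the vte2 point lies right of both other genotypes, and for AT3G49960, AT1G30870 and AT5G51890 at the bottom the vte1 point lies right of vte2 and WT.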

How the data were processed

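Total RNA of whole seedlings was hybridised to ATH1 arrays, per the labels. The authors deposited 1 linear intensity for each probe set and array, and the submitters' processing notes name MAS5. Its version is not given in the sources used here, nor its scaling target. Of 22810 probe sets 64 controls were left out, 22 signal units were added and log2 taken, and probe sets with a mean above the 30th percentile were kept (15922 of 22746). Of the non-control probe sets 13513 had 1 gene in the probe table, 503 had several and 8730 are not listed there. Only those with 1 gene were named, and 13436 matched a RefSeq locus (TAIR10.1 names only). A locus with several probe sets is represented by the one with the highest mean.

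All 18 arrays entered 1 limma 3.58.1 fit (R 4.3.3; 6 group means, eBayes with trend, two-sided, Benjamini-Hochberg within each contrast). For 3 arrays against 3 the smallest exact permutation p is 0.1, and the number of arrays limits the precision. Same-numbered vte2 arrays of the 2 days deviated together with r of 0.08, 0.01 and 0.08, so the numbers were not taken as pairs.

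Named genes were the 14 largest rises and falls among called probe sets with non-overlapping groups, the 8 highest and 8 lowest called differences from each other genotype, and up to 4 called members of each of 47 lists, all members of lists with 5 or fewer measured, and all tocopherol and marker genes; further list members are named as list exceptions. Of the lists 37 had a measured locus, and 6 wrongly matched loci were removed. Genes and lists were chosen with earlier results of these data known, and lists are described by counts and medians without a test. Other pseudocounts, filters, scalings, array subsets and the replicate block were tried. No sequences or coordinates are given. Python 3.11.15 with pandas 2.3.3 and matplotlib 3.10.9 served for tables and figures.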

Additional observations from a re-analysis of the deposited data

Results flagged for a closer look

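The change between the days differed between vte2 and WT in 32 probe sets and between vte2 and vte1 in 842, by the limma test of the difference itself. Each gene below is listed because that test passed. AT1G65500 passed the filter on low signals through its high vte2 day 3 signals, which limits both of its differences. Relative to WT, the vte2 change was higher for AT4G12490 (6.16), AT1G65500 (5.36), AT1G26420 (4.69), PRX52 (4.44), AT1G26380 (4.19), AT2G43620 (4.11), PDF1.4 (2.92) and YLS5 (2.88), and lower for AT3G50560 (-1.99). Relative to vte1, it was higher for AT4G12490 (6.17), AT1G65500 (6.14), PRX52 (5.61), AT2G43620 (5.23), AT3G62550 (3.66), PDF1.4 (3.58), AT1G26380 (3.50) and AT3G54150 (3.44). It was lower than in vte1 for AT3G49960 (-5.06), AT1G30870 (-4.90), THI2.2 (-4.15), AT5G51890 (-4.08), SWEET11 (-3.71), AT4G16980 (-3.66), AT4G25250 (-3.64) and AT3G01190 (-3.58). AT3G54150, of the methyltransferase family, had 223.4, 354.3 and 310.1 at day 3 and 14.2, 11.3 and 93.9 at day 1 in vte2, with changes of 2.59 in vte2 and -0.85 in vte1. The peroxidase gene AT3G01190 had changes of 0.96 in vte2 and 4.54 in vte1, and lost the call without vte2 day 3 replicate 1 (-3.48), day 3 replicate 2 (-3.34) or day 1 replicate 3 (-3.39). Groups of 3 arrays were too small to look for single outlying values.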

How the results depend on the processing

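Leaving a replicate out of all groups changed the counts most, and the cause was not tested. Calls for vte2 day 3 against day 1 were 3373 without replicate 1, 3024 without replicate 2 and 8450 without replicate 3, and stayed within 1.5 times of 6398 in the settings that kept all 3 replicate numbers. The difference from WT had 13 calls with log2(signal + 1), 20 with a filter at the 50th percentile and 0 to 313 with arrays or replicates left out, where the 0 of limma (without replicate 1) stands beside 593 at an unadjusted p under 0.05. The difference from vte1 had 1 to 3155 calls with arrays or replicates left out, and 1709 without vte1 day 1 replicate 3. A replicate block gave 54 calls for the difference from WT, 1285 for that from vte1 and 7150 for vte2. Same-numbered arrays were not taken as pairs, since vte2 day 3 replicate 2 correlated best with day 1 replicate 1. The replicate 3 arrays of the 2 days correlated best with each other in vte2, WT and vte1 (r = 0.08, 0.13 and 0.08), with negative r to the other numbers, and whether they share a source was not tested.

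Of 128 named loci called in vte2, 95 kept the call in every alternative run for them. Genes not called and list medians near 0 changed sign as follows. EXPA18 had 0.04 with log2(signal + 1) and -0.69 to 1.21 with arrays or replicates left out, called without vte2 day 1 replicate 3 (1.21) or replicate 3 (0.97). DFR had -0.02 after quantile normalization, -0.03 after median centring, and -0.33 to 0.74 with arrays left out. Cpn60beta4 had -0.07 and -0.18 after these scalings and -0.17 to 0.33 with arrays or replicates left out. With arrays or replicates left out, SDP1 ran from -0.41 to 0.04, UGT73B4 from -0.34 to 0.24, AT4G25250 from -0.91 to 0.53, AT1G78620 from -0.24 to 0.11, AT1G30870 from -1.01 to 0.51, AT3G49960 from -2.27 to 0.11, EXPA7 from -1.44 to 0.03 and PRL from -0.78 to 0.05. The median of histones was -0.08 under the filter at the 50th percentile. The median of chitinases and defensins was 0.17 under it, 0.08 after quantile normalization and -0.23 to 0.05 with arrays or replicates left out. With arrays or replicates left out, the median of electrophile and oxidative stress response ran from -0.34 to 0.24, the median of glutathione transferases from -0.35 to 0.13, the median of chlorophyll synthesis from -0.24 to 0.01, the median of tubulins from -0.43 to 0.05 and the median of expansins from -0.00 to 0.65.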

Other observations

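In the list of chitinases and defensins 2 of 10 measured members rose and 2 fell (median -0.03), shares near the 21.7% higher and 18.5% lower of all probe sets. The chitinase gene CHI had 832.5, 582.2 and 1205.7 at day 3 and 75.2, 50.7 and 93.5 at day 1 (3.20 ± 0.33), while the defensin-family genes LCR67 and PDF1.2 changed by -2.14 and -1.51. PDF1.2 lost its call without day 3 replicate 1 (-1.09) or day 1 replicate 1 (-1.27). JRG21, the single measured gene of the jasmonate list, had 253.2, 284.0 and 682.1 at day 3 and 118.0, 67.2 and 125.4 at day 1 (1.67 ± 0.45, limma adjusted p = 0.00627). Without day 3 replicate 3 it lost the call (1.24). The flavonoid genes DFR and UF3GT, which make anthocyanins, overlapped between the days and did not pass (0.22 and -0.91).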
